A study of Mus musculus with 12 samples.

Results

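The simple epithelial keratins Krt7, Krt8, Krt18, Krt19, Krt20 and Krt23 were followed in isolated colonic epithelial cells of mice with and without epithelial Tfeb. Members were taken by gene symbol, and the 6 symbols each matched 1 of the 47632 genes of the expression tables. The animals were C57/BL6 mice. In Tfeb ΔIEC animals, which the labels call KO, Cre recombinase under the villin promoter deleted a floxed Tfeb allele in the intestinal epithelium, and Tfeb flox/flox animals, which the labels call WT, carried the floxed alleles without this deletion. Both genotypes were sampled on Day 0, before dextran sulfate sodium (DSS, a detergent-like polymer that injures the colonic epithelium), on Day 4, while DSS was given, and on Day 11, after a period on water, with 2 animals in each of the 6 groups and 12 animals in all. The labels give 2.5% DSS, while the methods of the study state a somewhat lower concentration. The labels give ages of 10 and 12 weeks on Day 0, 12 weeks on Day 4 and 10 weeks on Day 11 in both genotypes. Cells were released with EDTA, and full-length cDNA was made by a SmartSeq2 variant. The unit is FPKM, the number of fragments scaled to transcript length and to the mapped fragments of the library, with 1 value per group pooled over its 2 animals. The pooled values hold no spread between animals, so no difference was tested here.

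Keratins are the intermediate filament proteins of epithelial cells. A type I (acidic) keratin pairs with a type II (basic) keratin to form the filament, and neither type is stable alone. In the gut, KRT8 is the main type II partner of the type I keratins KRT18, KRT19 and KRT20, and KRT20 is known as a marker of differentiated cells towards the epithelial surface. Filaments are attached to desmosomes and hemidesmosomes and protect the cell against mechanical and toxic stress.

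Several facts about the samples bear on all values. Tfeb, the targeted gene, had 0.901 FPKM in Tfeb flox/flox against 0.185 in Tfeb ΔIEC on Day 0, 1.08 and 0 on Day 4, and 1.18 and 0 on Day 11, so it was low in the controls and lower in every Tfeb ΔIEC group. The values of Day 4 and Day 11 were close to each other. Of the genes above 0 on both days, 1679 of 11746 (14.3%) in Tfeb flox/flox and 1310 of 12826 (10.2%) in Tfeb ΔIEC had an identical FPKM, against 0 genes between Day 0 and Day 4. Day 11 is therefore given beside Day 4 and not as a repeat of it, and whether the 2 days share libraries was not tested. All 8 epithelial markers were present. Immune, stromal and mesothelial markers were low, with summed levels of at most 9.04, 2.93 and 0.124 FPKM per group. On Day 4 the summed FPKM of all genes was 1.46e+06 in Tfeb flox/flox against 8.20e+05 in Tfeb ΔIEC. Division by that sum would raise the log2 ratio of FPKM by 0.84 on Day 4, by 0.83 on Day 11 and by 0.00 on Day 0. On the log2(FPKM + 1) scale it would move the median difference of all genes from 0.06 to 0.66 on Day 4 and from 0.08 to 0.68 on Day 11, and would turn the shares of genes higher and lower in Tfeb ΔIEC by at least 2-fold on Day 4 from 25.6% and 26.1% to 40.5% and 15.2%, and on Day 11 from 26.1% and 25.7% to 41.0% and 14.9%.

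The members lie in the 2 keratin gene clusters. In mm10, Krt7 (ENSMUSG00000023039.16) occupies chr15:101411043-101430313 on the plus strand. Krt8 (ENSMUSG00000049382.9) is at chr15:101996711-102004342 on the minus strand, and Krt18 (ENSMUSG00000023043.6), the only type I keratin gene of the type II cluster, is at chr15:102028216-102032026 on the plus strand, 23.9 kb away. On chromosome 11, all on the minus strand, are Krt20 (ENSMUSG00000035775.2) at chr11:99428403-99438150, Krt23 (ENSMUSG00000006777.7) at chr11:99477974-99493137 and Krt19 (ENSMUSG00000020911.14) at chr11:100140810-100148665. Krt20 and Krt23 are 39.8 kb apart. In GENCODE M21 the longest transcripts have 9 exons in Krt7 and Krt8, 8 in Krt20 and Krt23, 7 in Krt18 and 6 in Krt19.

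The RefSeq promoter table (GRCm38.p6, the same assembly as mm10) held 5 of the 6 members; Krt19 had no entry. The 250 bases before the annotated start are shown for Krt20, Krt23 and Krt7, the members that were at least 2-fold higher in Tfeb ΔIEC on Days 4 and 11. The RefSeq start of Krt7, and by a few bases that of Krt23, lies inside the span given above, so for these genes the stretch falls partly or wholly within that span. The sequences run 5′ to 3′ on the strand of the gene. Capitals mark the motifs searched on both strands, namely CACGTG (the E-box core bound by TFEB), TATAAA (the TATA box), CATAAA (a core of CDX sites) and GGGCGG (the GC box).
Krt20 (chr11:99438154-99438403, minus strand): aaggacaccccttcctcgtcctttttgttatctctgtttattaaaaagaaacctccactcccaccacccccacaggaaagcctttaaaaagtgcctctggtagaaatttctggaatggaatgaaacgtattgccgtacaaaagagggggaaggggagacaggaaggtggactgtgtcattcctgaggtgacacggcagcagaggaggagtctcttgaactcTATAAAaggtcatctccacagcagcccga
Krt23 (chr11:99493121-99493370, minus strand): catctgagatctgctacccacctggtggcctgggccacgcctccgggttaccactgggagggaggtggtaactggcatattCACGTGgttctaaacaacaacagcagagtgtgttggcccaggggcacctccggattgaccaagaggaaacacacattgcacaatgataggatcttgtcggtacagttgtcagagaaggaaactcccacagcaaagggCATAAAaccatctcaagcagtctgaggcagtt
Krt7 (chr15:101412153-101412402, plus strand): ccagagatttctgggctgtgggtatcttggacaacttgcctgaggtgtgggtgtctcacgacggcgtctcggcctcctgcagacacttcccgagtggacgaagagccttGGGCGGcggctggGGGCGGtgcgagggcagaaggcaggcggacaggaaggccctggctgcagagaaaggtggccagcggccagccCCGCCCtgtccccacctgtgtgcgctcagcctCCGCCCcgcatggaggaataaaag

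Krt20 had a TATAAA at position -29, counted from the start to the first base of the match. Krt23 had a CATAAA at -32 and a CACGTG at -169. Krt7 had 4 GC boxes, and neither an E-box nor a TATA box. Krt8 and Krt18 had none of the 4 motifs, so the E-box core was in 1 of 5 members. Among 27025 promoters of this length, TATAAA was in 13.0%, CATAAA in 11.1%, CACGTG in 6.05% and GGGCGG in 32.9%. None of the 4 motifs overlapped another. A match describes the letters only, and no binding was measured.

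The keratins fell into distinct levels. Krt19 was the highest member in every group, followed in Tfeb flox/flox by Krt8, Krt18, Krt20, Krt7 and Krt23. Tfeb ΔIEC had the same order on Day 0, where Krt20 (101 FPKM) and Krt7 (94.7 FPKM) were close. On Days 4 and 11, Krt20 stood above Krt18 in Tfeb ΔIEC. FPKM is scaled to transcript length, so the levels of different genes share a unit. The listed level of Krt8 also depends on a pseudogene described below, and genotype differences moved with transcript length on Days 4 and 11. Which neighbours differ beyond animal-to-animal spread cannot be told from pooled values.

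**Figure D1:**
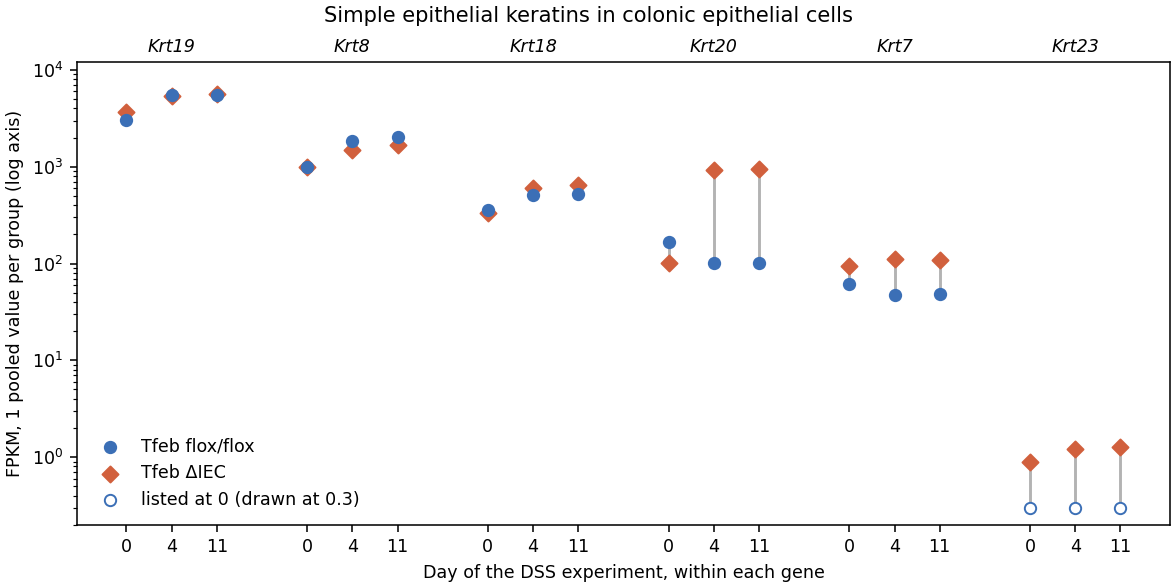
FPKM (log axis) of the 6 keratins on Days 0, 4 and 11, 1 pooled value per group, with circles for Tfeb flox/flox and diamonds for Tfeb ΔIEC joined by a line. Krt20 on Days 4 and 11 shows the widest gap among members above 0 in both genotypes (101 against 931 FPKM on Day 4), and Krt23 was listed at 0 in Tfeb flox/flox.

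A gene was counted as higher or lower where log2(FPKM + 1) differed by at least 1 (2-fold) between the genotypes of a day, among genes with at least 1 FPKM in either genotype. On Day 0, 5 of the 6 members passed this minimum and 0 of the 5 was higher or lower, where 13.5% of 9993 genes were higher in Tfeb ΔIEC and 16.1% were lower. On Day 4 all 6 members passed, 3 were higher (Krt7, Krt20 and Krt23) and 0 lower, against 25.6% higher and 26.1% lower of 9371 genes. On Day 11 the same 3 were higher and 0 lower, against 26.1% higher and 25.7% lower of 9365 genes. Krt23 passed the minimum only through Tfeb ΔIEC and had to differ, so it was left out of a second count. Among genes above 0 in both genotypes, 2 of 5 members were past 2-fold on Days 4 and 11 (Krt7 and Krt20), where 44.3% of all such genes were past it in either direction on each day, a similar share. The median log2 difference of the members that passed was -0.01, 0.70 and 0.72 on the 3 days, where that of all genes was 0.06, 0.06 and 0.08. Relative to genes of like transcript length it was -0.04, 0.38 and 0.35. Over the 5 members above 0 in both genotypes the uncorrected median was 0.24 on Day 4 and 0.31 on Day 11. Relative to genes of like length, the median of these 5 was 0.23 and 0.27, the values of Krt18.

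**Figure D2:**
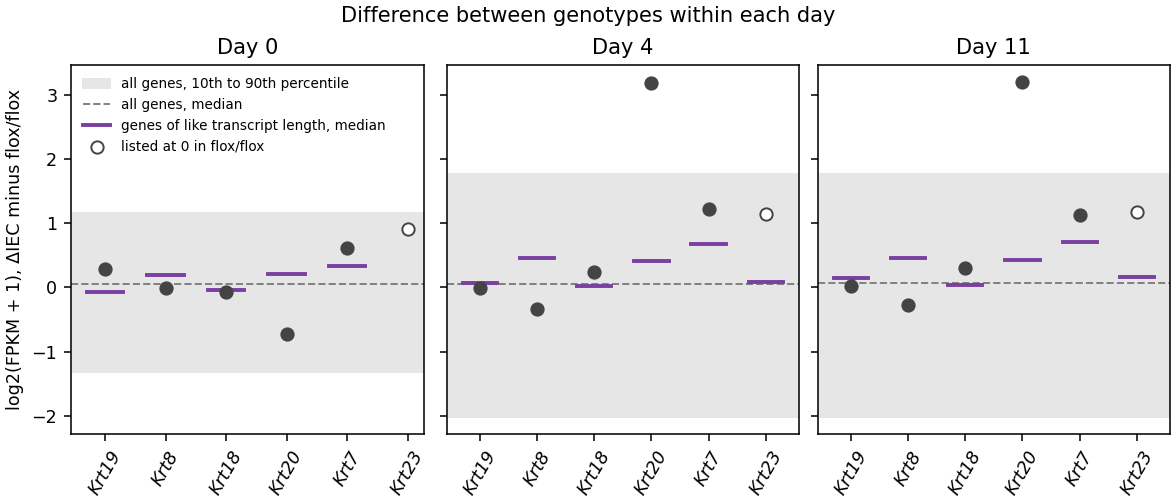
Difference in log2(FPKM + 1), Tfeb ΔIEC minus Tfeb flox/flox, of each keratin on each day. The grey band spans the 10th to 90th percentile of all genes (-2.03 to 1.77 on Day 4), the dashed line is their median and the purple bars are medians of genes of like transcript length; among members, Krt20 alone lies above the band, on Days 4 and 11.

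Krt20, the type I keratin of differentiated surface cells, gave the largest difference among members above 0 in both genotypes. It had 168 FPKM in Tfeb flox/flox against 101 in Tfeb ΔIEC on Day 0, 101 and 931 on Day 4, and 101 and 937 on Day 11. Tfeb ΔIEC was thus the lower group on Day 0, 1.66-fold and short of the threshold, and the higher group on the later days, by 9.19-fold and 9.31-fold. The log2 differences were -0.73, 3.19 and 3.21. On Day 4, 136 of 9371 genes (1.45%) had a difference at least as high, and on Day 11, 134 (1.43%). From Day 0 to Day 4 the deposited level was 0.60 times in Tfeb flox/flox and 9.18 times in Tfeb ΔIEC, although the days were normalized separately. From the step between low values, 1 fragment was estimated to be worth 0.603 FPKM times kb in Tfeb flox/flox against 0.306 in Tfeb ΔIEC on Day 4, which puts Krt20 at about 324 and 5870 fragments over both animals. This estimate was made after seeing the data. These numbers bear on counting error only, and the spread between animals is unknown. Its 50-base stretches occur in no other GENCODE transcript.

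Krt7, a type II keratin of ducts and other simple epithelia, was higher in Tfeb ΔIEC on each day. The levels were 61.6 FPKM in Tfeb flox/flox against 94.7 in Tfeb ΔIEC on Day 0, 46.9 and 111 on Day 4, and 49.0 and 109 on Day 11, or 1.54-fold, 2.36-fold and 2.22-fold. On Days 4 and 11 the log2 difference moved with transcript length. Krt7, at 4094 nt, is the longest member, and genes of its length had a median log2 difference of 0.68 and 0.70, against 0.02 and 0.04 for genes of the length of Krt18 (1437 nt). Relative to them Krt7 was higher by 0.54 and 0.43 on the log2 scale, below the 2-fold threshold, so that of the 5 members only Krt20 stayed past it. Krt20, at 1927 nt, kept 2.77 and 2.78 after the same subtraction.

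Krt23, a divergent type I keratin, was listed at 0 in Tfeb flox/flox on every day and at 0.888, 1.22 and 1.26 FPKM in Tfeb ΔIEC on Days 0, 4 and 11. By the same estimate these values rest on about 3.27, 6.26 and 5.52 fragments over both animals. No fold is given against 0, and the levels are close to the lowest that could be listed.

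Krt19, the smallest keratin, which lacks most of the tail domain, was the most abundant member and differed little between genotypes. It had 3018 FPKM in Tfeb flox/flox against 3685 in Tfeb ΔIEC on Day 0, 5453 and 5430 on Day 4, and 5516 and 5591 on Day 11. The log2 differences of 0.29, -0.01 and 0.02 lie inside the 2-fold limits on all 3 days. After division by the sum of all values they were 0.83 and 0.85 on Days 4 and 11, where the median of all genes was 0.66 and 0.68, and with the sum over genes with transcripts of at least 1000 nt they were 0.12 and 0.08.

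Krt18, the usual type I partner of KRT8, was 8.50 to 10.9 times lower than Krt19 in level. Its levels were 355 FPKM in Tfeb flox/flox against 337 in Tfeb ΔIEC on Day 0, 506 and 600 on Day 4, and 522 and 646 on Day 11. The log2 differences were -0.08, 0.24 and 0.31, none of them 2-fold, and 1.08 and 1.14 on Days 4 and 11 after division by the sum of all values, but 0.37 on both days with the sum over genes with transcripts of at least 1000 nt. The level on Day 4 was 1.43 times that on Day 0 in Tfeb flox/flox and 1.78 times in Tfeb ΔIEC.

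Krt8, the main type II keratin of the gut, was the only member listed lower in Tfeb ΔIEC on all 3 days. It had 987 FPKM in Tfeb flox/flox against 982 in Tfeb ΔIEC on Day 0, 1865 and 1481 on Day 4, and 2048 and 1695 on Day 11. The log2 differences of -0.01, -0.33 and -0.27 did not reach 2-fold, and on Days 4 and 11 they turned to 0.50 and 0.56 after division by the sum of all values, below the median of all genes under that scaling. Division by the sum over genes with transcripts of at least 1000 nt left them at -0.21 on both days.

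The listed level of Krt8 is uncertain because 26.9% of its 50-base stretches also occur in Krt8-ps (ENSMUSG00000109325.1), a processed pseudogene of 945 nt on chromosome 7. Krt8-ps was listed at 1824 FPKM in Tfeb flox/flox against 2128 in Tfeb ΔIEC on Day 0, 2371 and 3204 on Day 4, and 2450 and 3608 on Day 11. It therefore stood above Krt8 in every group, and its log2 difference of 0.22, 0.43 and 0.56 had the opposite sign on every day. With the fragments of both put together and expressed per length of Krt8, the levels were 1867 and 2009 FPKM on Day 0, 3009 and 3027 on Day 4, and 3230 and 3436 on Day 11. The log2 difference of the pair was 0.11, 0.01 and 0.09, so the pair was not lower in Tfeb ΔIEC on any day. This sum was formed after seeing the data, and how many of the fragments came from each gene was not tested. Krt18 shared 0.72% of its stretches with other genes, and Krt7 0.30%.

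**Figure D3:**
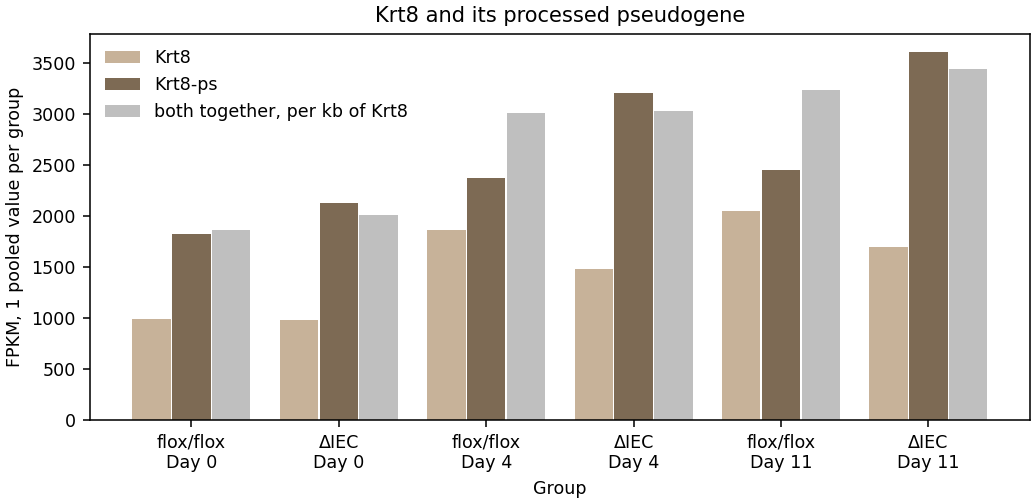
FPKM of Krt8, of its processed pseudogene Krt8-ps, and of both together per length of Krt8, as 1 pooled value per group. Krt8-ps was above Krt8 in all 6 groups, and the combined bars of the genotypes on Day 4 were nearly level (3009 and 3027 FPKM).

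The make-up of the keratin transcripts does not depend on the scaling between groups. Krt20 made up 3.67% of the summed FPKM of the 6 members in Tfeb flox/flox against 1.95% in Tfeb ΔIEC on Day 0, 1.27% and 10.9% on Day 4, and 1.22% and 10.4% on Day 11. Krt19 lay between 62.3% and 70.9% in all groups, Krt8 between 17.3% and 24.9%, and Krt18 between 6.34% and 7.74%. Krt7 made up 0.59% to 1.82%. These shares use the listed level of Krt8. With Krt8-ps added to Krt8, Krt20 made up 3.08% in Tfeb flox/flox against 1.63% in Tfeb ΔIEC on Day 0. On Day 4 it then made up 1.11% and 9.22%, and on Day 11 1.07% and 8.74%. Against Krt19, whose 50-base stretches occur in no other gene, Krt20 was 53.8 times lower in Tfeb flox/flox and 5.83 times lower in Tfeb ΔIEC on Day 4, where the Day 0 values were 17.9 and 36.3. The summed level of the members was 4590 and 5201 FPKM on Day 0, 7973 and 8554 on Day 4, and 8236 and 8978 on Day 11, in Tfeb flox/flox and Tfeb ΔIEC.

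**Figure D4:**
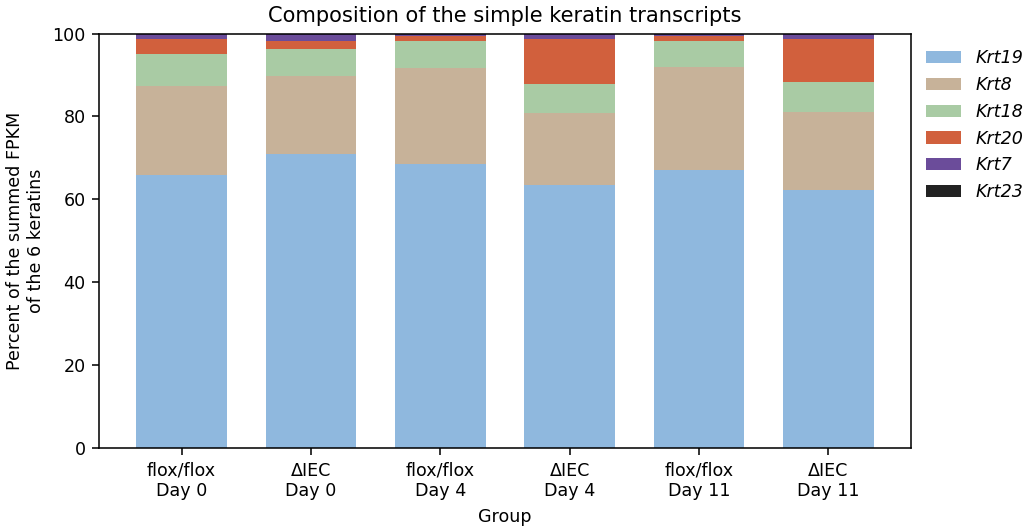
Percent of the summed FPKM of the 6 keratins held by each, in the 6 groups. Krt20 holds 10.9% and 10.4% in Tfeb ΔIEC on Days 4 and 11 and at most 3.67% elsewhere; Krt23 is too small to be seen.

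The ratio of type I to type II transcripts, which pair at the protein level, was 3.38 in Tfeb flox/flox against 3.83 in Tfeb ΔIEC on Day 0, 3.17 and 4.38 on Day 4, and 2.93 and 3.98 on Day 11. It was higher in Tfeb ΔIEC on each day. Without Krt19 it was below 1 in every group and turned on Day 0, at 0.50 and 0.41, with 0.32 and 0.96 on Day 4 and 0.30 and 0.88 on Day 11. With Krt19 kept and Krt8-ps added to Krt8 the ratio was 1.84 and 1.96, 1.98 and 2.22, and 1.87 and 2.02. Krt8 over Krt18 was 2.78 and 2.92 on Day 0, 3.68 and 2.47 on Day 4, and 3.92 and 2.63 on Day 11. With the pseudogene added, these ratios were 5.26 and 5.97, 5.94 and 5.05, and 6.19 and 5.32.

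The pattern over the 6 groups set Krt20 apart from the other keratins. Likeness was measured as the root mean square difference of log2(FPKM + 1), each gene centred on its own mean, over the 6 pooled values. Krt18 and Krt19 differed by 0.15, Krt8 and Krt19 by 0.17, and Krt8 and Krt18 by 0.25. Krt7 differed from these by 0.56 to 0.76, and Krt20 differed from the other 4 by 1.10 to 1.46. Krt23 was left out because it was below 1 FPKM in some groups.

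Among 5356 genes at 1 FPKM or more in all groups, the gene most like Krt20 was Cd74, the invariant chain of MHC class II, with a difference of 0.11. Its levels were 34.7 and 18.8 FPKM on Day 0, 20.5 and 165 on Day 4, and 21.3 and 175 on Day 11, in Tfeb flox/flox and Tfeb ΔIEC. The next was Emp1, an epithelial membrane protein, at 0.26, with 34.9 and 38.5, 25.5 and 238, and 24.5 and 233 FPKM. The genes nearest to Krt7 were Tgfbr2, a TGF-β receptor, and Arpc5, a subunit of the actin-nucleating Arp2/3 complex. Those nearest to Krt8 were Ffar4, a fatty acid receptor, and C920025E04Rik. Prdx6, a peroxiredoxin, and Scamp4, a secretory carrier membrane protein, were nearest to Krt18, and Mccc1, a subunit of a leucine-degrading carboxylase, and Lamp1, a lysosomal membrane glycoprotein, to Krt19. These 8 genes lay within 0.04 to 0.08 of their member.

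Among all 51 keratin symbols in the tables, 8 reached 1 FPKM in at least 1 group and 34 were at 0 in every group. Besides the 6 members these were Krt17, a keratin of injured and stratified epithelia, at 6.77 to 15.7 FPKM, and Krt32, a hair keratin, at 1.70 to 6.36 FPKM. The members held 99.7% to 99.8% of the summed keratin FPKM in each group. Of 17 keratins of stratified epithelia only Krt17 reached 1 FPKM, and its log2 difference was 0.21, 0.36 and 0.49. The squamous markers Krt5, Krt13, Krt4, Krt6a, Trp63 and Dsg3 were at 0 in all groups. Of the other squamous markers, Krt14 lay between 0 and 0.903 FPKM and Sprr1a between 0 and 6.08 FPKM.

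Of 14 genes for the attachment of keratin filaments, 13 were in the tables and 10 reached 1 FPKM on Day 4, and 2 were higher and 1 lower in Tfeb ΔIEC, where 25.6% and 26.1% of all genes were. Dsc2, a desmosomal cadherin, had 1.42 FPKM in Tfeb flox/flox against 27.9 in Tfeb ΔIEC, and Jup, the desmosomal plaque protein plakoglobin, had 22.8 and 59.6. Dst, the hemidesmosomal linker dystonin, had 3.31 and 0.744. On Day 11, 4 of 10 were higher, with the cadherin Dsg2 (3.86 and 8.83) and the plaque protein Pkp3 (8.04 and 19.9) added, and Dst alone was lower, beside 26.1% and 25.7% of all genes. On Day 0 only Dsc2 differed by 2-fold, of 11, at 3.94 and 17.9 FPKM, beside 13.5% of all genes higher and 16.1% lower. The linkers Dsp (2.20 and 3.08 on Day 4) and Plec (6.24 and 10.6) did not reach 2-fold on any day. Dst passed the minimum through Tfeb flox/flox alone on Days 4 and 11, and through Tfeb ΔIEC alone on Day 0. The median log2 difference of the list was 0.28, 0.77 and 0.81 on Days 0, 4 and 11, and -0.03, 0.28 and 0.35 relative to genes of like transcript length. The count of higher genes lay below the share of all genes on Days 0 and 4 and above it on Day 11.

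Of 15 chaperones, modifiers and proteases that act on keratins, 13 reached 1 FPKM on Day 4, and 4 were higher and 1 lower, close to or below the 25.6% and 26.1% of all genes. Those higher were the 14-3-3 genes Ywhae (18.4 FPKM in Tfeb flox/flox against 92.9 in Tfeb ΔIEC) and Ywhaz (9.10 and 34.8), the casein kinase Csnk1a1 (24.6 and 58.6) and its keratin recruiter Fam83h (2.42 and 6.02). The heat shock gene Hspa1b (1.92 and 0.405), which passed the minimum through Tfeb flox/flox alone, was lower. Sfn, the epithelial 14-3-3 protein, had 38.0 and 38.8. On Day 11, 3 of 12 were higher (Ywhae, Ywhaz and Csnk1a1) and 0 lower, beside 26.1% and 25.7% of all genes. On Day 0, 1 of 12 was higher and 0 lower, beside 13.5% and 16.1%. That gene, Fbf1 (0.129 and 1.87), passed the minimum through Tfeb ΔIEC alone. The median log2 difference was 0.20, 0.46 and 0.80, and 0.04, 0.20 and 0.20 relative to genes of like length. Of 9 intermediate filament genes that are not keratins, 4 reached 1 FPKM, and the lamin gene Lmnb2 alone was past 2-fold, on Days 4 (0.979 and 3.74, below the minimum in Tfeb flox/flox) and 11 (1.07 and 4.11). The share of all genes that were higher was 25.6% on Day 4 and 26.1% on Day 11. The median log2 difference of these 4 genes was 0.27, -0.33 and -0.16 on Days 0, 4 and 11. Relative to genes of like length it was -0.03, -0.99 and -0.82.

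Cell type markers differed between genotypes on all 3 days, Day 0 included. Of 7 mature colonocyte markers, 2 were higher on Day 4, the chloride exchanger Slc26a3 (33.3 and 271 FPKM) and the water channel Aqp8 (25.3 and 69.3), and 1 was lower, the guanylin gene Guca2a (3.32e+04 and 9.20e+03), where 25.6% and 26.1% of all genes were higher and lower. On Day 0, 1 was higher (Slc20a1) and 3 were lower, among them Aqp8 at 198 and 30.1, beside 13.5% and 16.1% of all genes. The median log2 difference of the list was -0.63, 0.84 and 0.79 on the 3 days, and -0.56, 0.33 and 0.33 relative to genes of like length. Its summed level ranged from 4.27e+04 to 6.00e+04 FPKM in Tfeb flox/flox and from 2.78e+04 to 3.91e+04 in Tfeb ΔIEC. Of 7 goblet cell markers, 5 were lower on Days 4 and 11 (Tff3, Fcgbp, Spink4, Agr2 and Zg16) and 2 higher (Muc2 and Clca1), where 26.1% and 25.7% of all genes were lower on these days and 25.6% and 26.1% higher. On Day 0, 2 were lower, Tff3 (3909 and 1277 FPKM) and Fcgbp (484 and listed at 0), and Muc2 was higher, beside 16.1% of all genes lower and 13.5% higher. The median log2 difference of the goblet list was -0.88, -2.23 and -2.24, and 0.01, -1.01 and -1.04 relative to genes of like length. The summed goblet level on Day 4 was 1.50e+05 in Tfeb flox/flox against 2.28e+04 in Tfeb ΔIEC. In cells pooled from a tissue, fewer cells of a type and less RNA per cell cannot be told apart, and the part of these markers in the keratin differences was not tested.

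**Figure D5:**
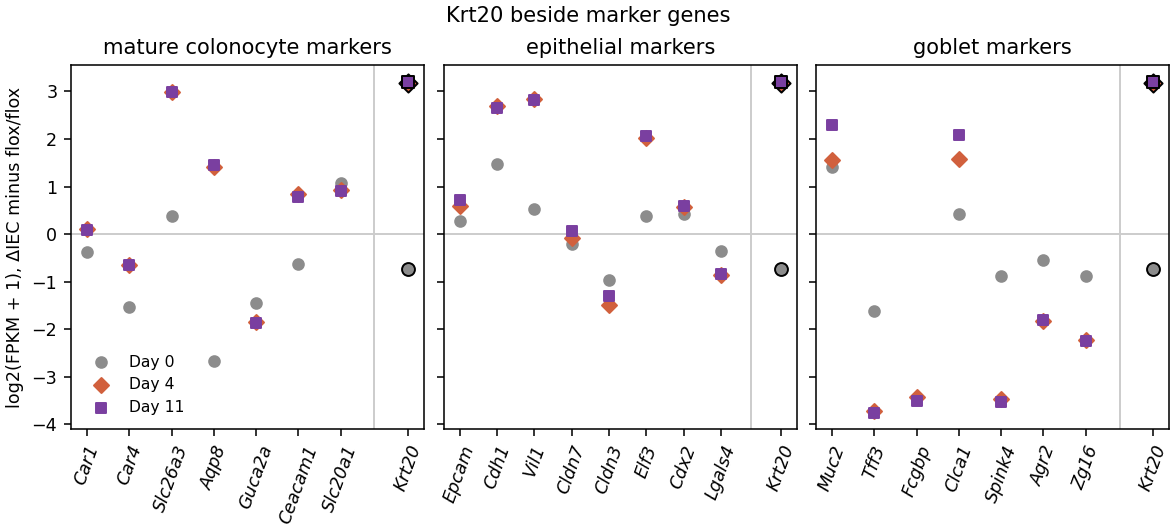
Difference in log2(FPKM + 1), Tfeb ΔIEC minus Tfeb flox/flox, of mature colonocyte, epithelial and goblet markers, with Krt20 to the right of each line; grey circles are Day 0, orange diamonds Day 4 and purple squares Day 11. On Days 4 and 11 the colonocyte markers lie on both sides of 0 (Slc26a3 at 2.99 and Guca2a at -1.85 on Day 4), as do the goblet markers (Tff3 at -3.73 and Clca1 at 1.59); Fcgbp on Day 0 is not drawn because it was listed at 0 in Tfeb ΔIEC.

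Of the 8 epithelial markers, 3 were higher and 1 lower on Day 4, where 25.6% and 26.1% of all genes were higher and lower. On Day 0 Cdh1 alone was past 2-fold, at 38.5 and 109 FPKM, beside 13.5% of all genes higher and 16.1% lower. Cdh1 (24.5 and 164 FPKM), Vil1 (30.6 and 224) and Elf3 (113 and 463) were higher in Tfeb ΔIEC on Day 4 and Cldn3 (1573 and 562) was lower, while Epcam had 1202 and 1803. Divided by the geometric mean of the 8 markers, the summed keratin level differed by -0.02, -0.70 and -0.74 on the log2 scale, and divided by Epcam alone by -0.10, -0.48 and -0.60. Krt20 divided by the 8 markers differed by -0.93, 2.40 and 2.35, and Krt7 by 0.42, 0.44 and 0.28. Immune markers were low: Ptprc, the pan-leukocyte marker CD45, lay between 0.287 and 0.790 FPKM, Cd68 was at 0 in every group, and the summed level of the 9 immune markers in the tables was 4.34 and 6.31 FPKM on Day 4. Those that reached 1 FPKM were Cd3g, Lyz2 and S100a8. On Day 0, Cd3g had 7.09 FPKM in Tfeb flox/flox against 2.01 in Tfeb ΔIEC. On Day 4, Cd3g had 0.707 and 2.03, Lyz2 had 2.88 and 1.77, and S100a8 had 0 and 1.15.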

How the data were processed

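Colonic epithelial cells of 12 mice in 6 groups were profiled by paired-end RNA-seq on a MiSeq. The authors mapped reads to mm10 with TopHat2 (2.0.14 in the submitters' processing notes) and Bowtie and ran Cuffdiff 2.1.1, and deposited 1 FPKM value per genotype and day, pooled over 2 animals and scaled within the day. The annotation is not given in the sources used here. The tables also hold the authors' fold changes, test statistics, p-values and q-values, which were not used. Members and lists were chosen with earlier results of these data known. The results of 2 genes of the list of keratin chaperones, modifiers and proteases are not reported here, and its counts leave them out. Genes named are the members, Tfeb, the genes of a list where that list is described, and for each member at 1 FPKM or more in all groups the 2 genes of most similar pattern; Krt8-ps, Krt32 and the genes that share sequence were named after their values were seen.

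Differences are log2(FPKM + 1), Tfeb ΔIEC minus Tfeb flox/flox, which understates the change of low genes. Medians of like length used 100 genes on either side. Lengths and shared stretches of 50 bases come from GENCODE M21, which matched 47218 of 47632 genes, and promoters from RefSeq. The worth of 1 fragment was read from the lowest steps of single-transcript genes of 1500 to 4000 nt. Depth per animal is unknown, and fragment numbers cover counting error only. Alternatives were pseudocounts of 0.1 and 5, other minimums and thresholds, other scalings and sums. Python 3.11.15, numpy 2.4.6, pandas 2.3.3 and matplotlib 3.10.9 were used, and the computations were tested on simulated data.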

Additional observations from a re-analysis of the deposited data

Results flagged for a closer look

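Krt20 moved in opposite directions between genotypes before and during DSS. It was lower in Tfeb ΔIEC on Day 0 and higher on Days 4 and 11, so the log2 difference on Day 4 exceeded that on Day 0 by 3.91, and that on Day 11 by 3.93. Each rests on 1 pooled value per group, and the difference between the days was not tested.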

How the results depend on the processing

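The higher level of Krt20 in Tfeb ΔIEC ranged from 2.77 to 4.02 on Day 4 and from 2.78 to 4.03 on Day 11 over 9 alternatives each, and its lower level on Day 0 from -0.94 to -0.70 without reaching 2-fold. Krt7 ranged from 0.54 to 2.04 on Day 4 and from 0.43 to 1.95 on Day 11, below 2-fold under 1 of 9, correction for transcript length. Krt23 ranged from 0.32 to 3.73 and from 0.32 to 3.76, below 2-fold under 1 of 7, a pseudocount of 5. Krt18 passed 2-fold under 1 of 9, division by the sum of all values, and that division raised the median of the members to 1.20 on Day 4 and 1.24 on Day 11, where that of all genes was 0.66 and 0.68. The median of the members was 0.38 and 0.35 after length correction and 0.28 and 0.31 with a pseudocount of 5. These medians include Krt23. Over the 5 members above 0 in both genotypes the length-corrected median was 0.23 and 0.27. The members past 2-fold, all higher in Tfeb ΔIEC, numbered 2 to 4 on Days 4 and 11 under the other alternatives. On these days 22.9% to 66.7% of all genes were past the threshold in either direction. Where Krt23 was counted, it had passed the minimum only through Tfeb ΔIEC. After length correction the 2 members were Krt20 and Krt23, so without Krt23 only Krt20 stayed past 2-fold. On Day 0 the count was 0. With a 4-fold threshold, 1 of 6 members (Krt20) was higher on Day 4 and 1 on Day 11, beside 17.7% and 17.6% of all genes in either direction. Without Krt19, the highest member, the share of Krt20 was 10.7% in Tfeb flox/flox against 6.70% in Tfeb ΔIEC on Day 0, 4.02% and 29.8% on Day 4, and 3.70% and 27.7% on Day 11, and the type I to type II ratio was 0.50 and 0.41, 0.32 and 0.96, and 0.30 and 0.88. With Krt8-ps added to Krt8 that ratio was 1.84 and 1.96, 1.98 and 2.22, and 1.87 and 2.02. Krt8 ranged from -0.79 to 0.50 on Day 4 over 10 alternatives and was not 2-fold under any. The pseudogene sums, the filter above 0 in both genotypes and the sum over transcripts of at least 1000 nt were chosen after seeing the data. No paired analysis was possible because the tables hold 1 pooled value per group, and for the same reason leaving out each replicate was not run.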
